A study of Mus musculus with 6 samples.

Results

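Genes of bone morphogenetic protein (BMP) signalling and of the Id family were followed in MPI-II mouse embryonic stem cells, either wild type for Ddx5, which encodes an RNA helicase, or lacking it. The 10 genes listed were the ligand gene Bmp4, the receptor genes Bmpr1a and Bmpr2, the Smad genes Smad1, Smad5, Smad6 and Smad7, and the target genes Id1, Id2 and Id3. They were chosen by name and matched to the gene names of the deposited table, which gave 8 of them among 10989 genes. Smad6 and Id2 were not analysed here. RNA was sequenced from 2 wild-type (WT, DDX5+/+) libraries, numbered as replicates, and from 4 knockout (KO, DDX5-/-) libraries, numbered as lines. Both groups shared the MPI-II background and grew on feeder cells with serum, leukemia inhibitory factor (LIF), PD0325901 (a MEK inhibitor) and a GSK3 inhibitor, per the labels' protocols. Each KO line was a single clone, made with a Cas9 nickase and paired guides in the second exon of Ddx5 and selected with G418. Whether the WT replicates were separate cultures is not stated in the labels, so p-values cover the spread among these samples, which may be technical.

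BMP ligands are secreted dimers of the transforming growth factor β family. They bring together type I receptors, such as BMPR1A, and type II receptors, such as BMPR2, which phosphorylate SMAD1 and SMAD5. These bind SMAD4, enter the nucleus and switch on target genes, among them the Id genes and the inhibitory Smads, SMAD6 and SMAD7, which feed back on the receptors. ID proteins bind E proteins, a class of basic helix-loop-helix transcription factors, and keep them off DNA. In cultured mouse embryonic stem cells, BMP4 acting through Id genes is known to sustain self-renewal together with LIF.

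The promoters of Bmp4 and Id3 are printed because these were the 2 members that passed the test between KO and WT. The sequences are from RefSeq (build GRCm38.p6, the assembly also called mm10), run 5′ to 3′ on the gene's strand and span 250 bases before to 50 after the transcription start in RefSeq. Capitals mark the letters GTCT, the core of the Smad binding element, on either strand. The Bmp4 window is chr14:46390620-46390919 on the minus strand, and the Id3 window is chr4:136143572-136143871 on the plus strand. The RefSeq start of Bmp4 is also the start of the gene in GENCODE, whereas that of Id3 lies 325 bases inside the GENCODE gene, so the Id3 window is within the gene by that annotation.
Bmp4: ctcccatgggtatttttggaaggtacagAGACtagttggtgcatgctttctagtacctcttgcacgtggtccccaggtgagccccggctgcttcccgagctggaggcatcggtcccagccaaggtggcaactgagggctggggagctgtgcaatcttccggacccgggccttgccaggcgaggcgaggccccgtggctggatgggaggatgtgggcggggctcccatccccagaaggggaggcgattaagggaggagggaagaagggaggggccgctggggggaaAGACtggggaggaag
Id3: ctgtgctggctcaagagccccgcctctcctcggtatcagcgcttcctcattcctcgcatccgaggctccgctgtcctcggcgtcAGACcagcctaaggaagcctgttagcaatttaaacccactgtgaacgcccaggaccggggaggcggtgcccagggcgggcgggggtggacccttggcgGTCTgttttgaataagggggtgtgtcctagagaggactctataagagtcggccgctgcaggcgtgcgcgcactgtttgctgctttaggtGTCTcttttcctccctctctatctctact
GTCT occurred 2 times in the Bmp4 window and 3 times in the Id3 window. It is a short motif that 88% of the 32851 promoters in the RefSeq table hold. The GC-rich element GGCGCC was searched on both strands too, alone (11.9% of all promoters) and followed after 5 bases by GTCT (0.0731% of all promoters; this match contains a GTCT). Neither lay in these 2 windows. Of the 8 members, 6 had a promoter in the table; Id1 and Smad7 did not.

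Expression is given as the normalized scores of the deposited table, called deposited units. Library totals lay between 14612799 and 14722877 units, which the normalization sets, and sequencing depth cannot be read from them. WT replicate 2 had 131 genes listed at 0, and each other library had 13 to 19. Its log levels correlated with those of WT replicate 1 at r = 0.934 across genes, which are not independent, against 0.967 to 0.990 among the KO lines. Ddx5 stood at 36433 and 36436 units in WT and at 5854, 8450, 12793 and 5659 units in KO lines 1 to 4. Of the 8 embryonic stem cell markers, 7 did not pass the test and 1 was higher in KO, with a median log2 fold change of 0.03.

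Loss of Ddx5 was accompanied by lower Bmp4 and lower Id3, while the receptor and Smad genes between them did not pass the test. Bmp4 was 8.82-fold lower and Id3 3.14-fold lower in the KO lines, as ratios of mean deposited values. Of the 8 members, 2 were called lower and none higher, at an adjusted p below 0.05 in limma over all genes. In the same fit 6 members had an unadjusted p below 0.05, beside 3961 of all 10989 genes. With libraries weighted by their estimated variability (array weights in limma), neither call held, at an adjusted p of 0.0531 for Bmp4 and 0.0983 for Id3. Of all genes tested, 17.1% were called: 7.34% were lower and 9.75% higher. The median log2 fold change of the members was -0.13, beside 0.04 over all genes. In 7 of the 8 members the KO lines lay entirely on one side of both WT libraries, where 43.7% of all genes did so. Bmp4, Bmpr1a, Id1 and Id3 lay below both WT libraries (19.6% of all genes did), and Smad1, Smad5 and Smad7 lay above both (24.1% of all genes did).

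**Figure D1:**
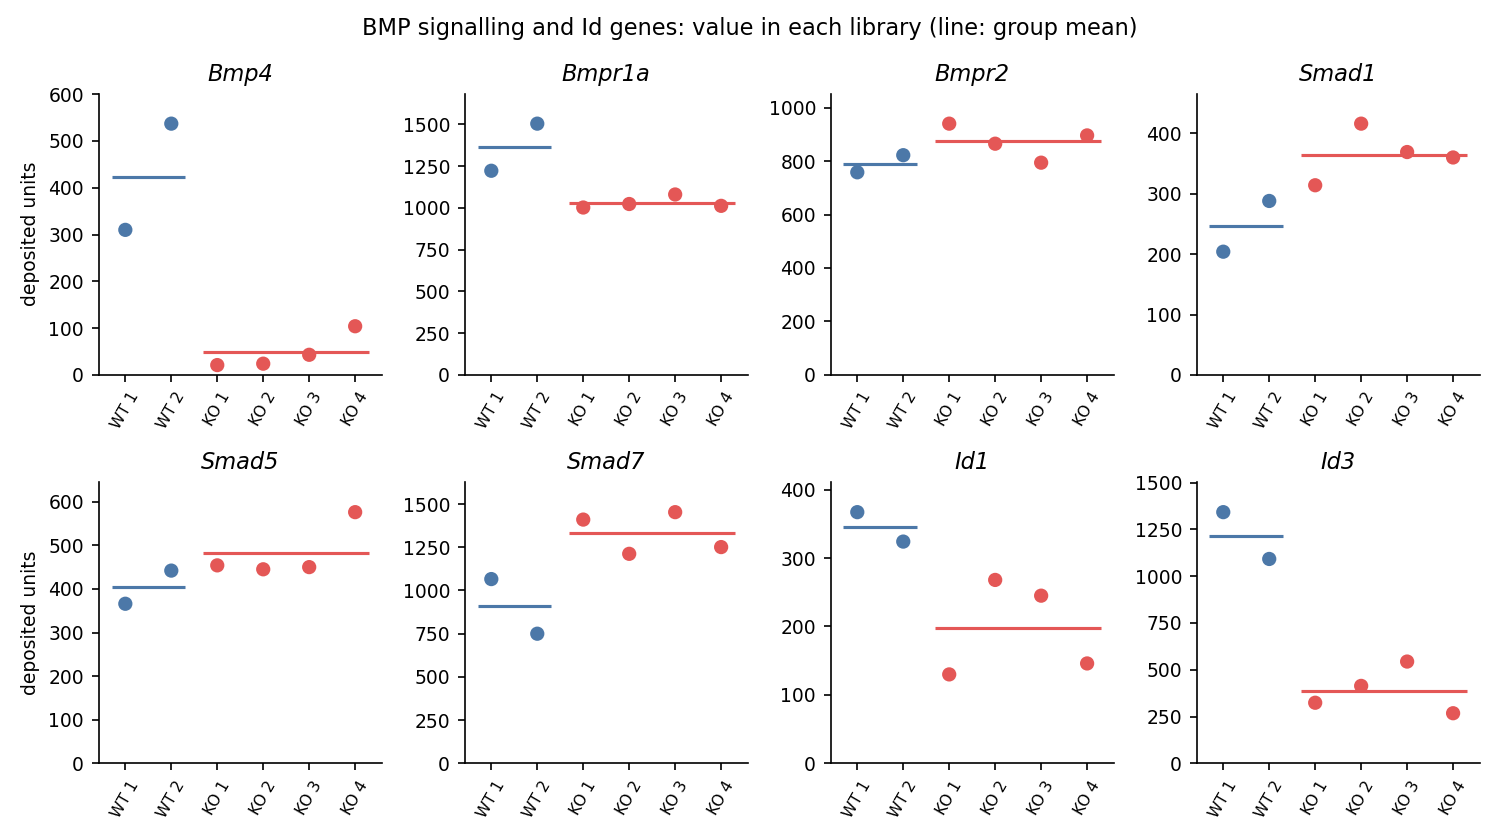
Value of each of the 8 members in the 6 libraries, in deposited units on linear axes that start at 0, with WT in blue, KO in red and lines at the group means. Bmp4 and Id3 are lower in every KO line than in either WT library, and Bmpr2 is the 1 member whose groups overlap.

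**Figure D2:**
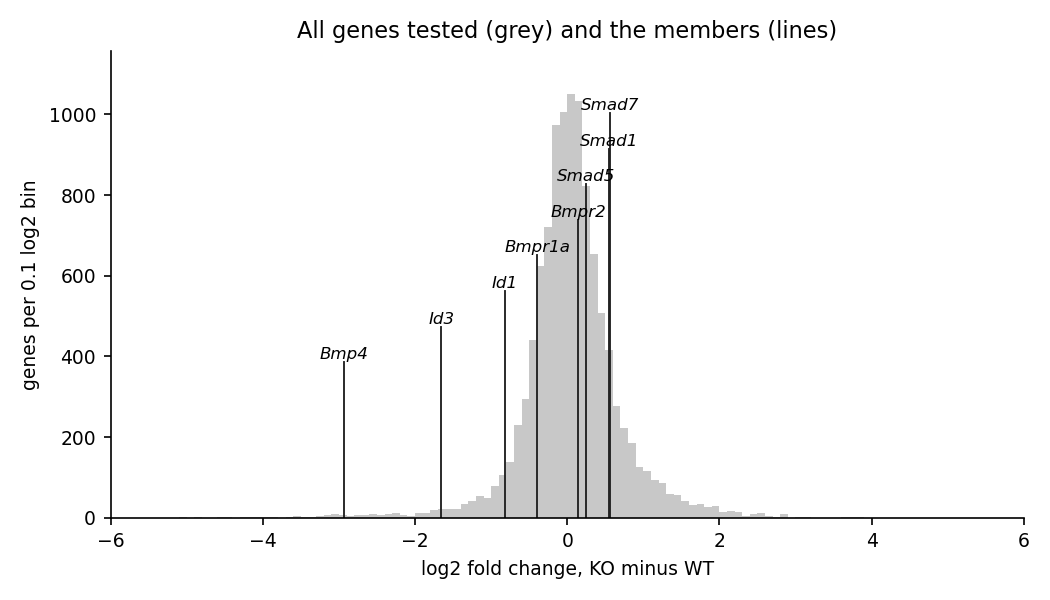
Histogram of the log2 fold change, KO minus WT, over all 10989 genes in grey, with vertical lines at the 8 members (line heights only separate the labels). Bmp4 at -2.93 and Id3 at -1.65 lie far to the left of the bulk, and the other members lie between -0.82 and 0.56.

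Bmp4 encodes the BMP ligand used to support embryonic stem cell cultures. The gene (ENSMUSG00000021835, chromosome 14, 46383520 to 46390669, minus strand, mm10) stood at 310 and 537 units in WT replicates 1 and 2. In KO lines 1 to 4 it stood at 21, 24, 43 and 104 units. Lines 1 and 2 were lowest, line 4 was the highest of the KO lines, and the groups did not overlap. Every gene of the table reaches 80 units in at least 2 libraries. Bmp4 did so in both WT libraries and, among the KO lines, in line 4 alone. Its listing thus depended on WT, where it is high, which favours finding it lower in KO. The log2 fold change, which adds a pseudocount of 1 to scaled values and so understates the change of low genes, was -2.93 (SE 0.519, adjusted p = 0.0148 in limma). The exact two-sided permutation test gave p = 0.0667, the smallest that 2 against 4 libraries allow. Without WT replicate 2 the log2 fold change was -2.55 and did not pass (adjusted p = 0.0666).

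Another BMP ligand moved the opposite way. Bmp7 (ENSMUSG00000008999), a BMP ligand that also signals through the type I receptor ACVR1, stood at 38 and 18 units in WT and at 188, 208, 134 and 229 units across the KO lines. It rose 6.78-fold (log2 2.28, SE 0.3, adjusted p = 0.00712), a call that array weights ended (adjusted p = 0.0512). Per kilobase of the longest coding transcript in GENCODE, the mean level of Bmp4 was 205 ± 77.8 units in WT (SD, n = 2) and 23.3 ± 18.7 in KO (SD, n = 4), and that of Bmp7 was 7.63 in WT and 51.7 in KO. In WT Bmp4 was thus the higher of these 2 ligand genes, and in the KO lines Bmp7 was, per length and in deposited units alike. The listing of each gene depended on the group where it is high, which favours such a switch. Gdf3, which encodes a divergent member of the ligand family and was chosen after its values were seen, stood at 2532 and 1960 units in WT and at 1667 to 1832 in the KO lines. It did not pass over all libraries (log2 -0.34, adjusted p = 0.0935). The log2 fold change was -0.53 without WT replicate 2 and -0.16 without WT replicate 1. Of 9 other settings that kept all libraries, Gdf3 passed in 1. This was with each chromosome centred in each library (log2 -0.52, adjusted p = 0.0453), an alternative added after seeing the data. Gdf3 lies on chromosome 6, whose genes stood at a median of 0.42 (log2) above their mean over the libraries in KO line 4 and between -0.16 and -0.04 in the other libraries. The other 11 of the 13 listed ligands were not analysed here.

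Neither receptor gene for BMP4 passed the test. Bmpr1a, the type I receptor (ENSMUSG00000021796, chromosome 14, 34410734 to 34503341), stood at 1222 and 1504 units in WT and at 1002, 1023, 1080 and 1012 units across the KO lines. All KO lines lay below both WT libraries and within a narrow range. Its log2 fold change was -0.39 (SE 0.111) and missed the threshold at an adjusted p of 0.053. The log2 fold change was -0.54 without WT replicate 1 and -0.25 without WT replicate 2. Of the 9 other settings that kept all libraries, Bmpr1a passed with trimmed-mean scaling (adjusted p = 0.0434) and with chromosome centring (adjusted p = 0.044). It did not pass in the remaining 7. Bmpr2, the type II receptor (ENSMUSG00000067336, chromosome 1, 59763400 to 59879014), stood at 758 and 822 units in WT and at 940, 865, 794 and 896 units across the KO lines. Its groups overlapped, with a log2 fold change of 0.14 (SE 0.108, adjusted p = 0.386).

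None of the 6 other receptor and co-receptor genes measured was called in limma (1 had an unadjusted p below 0.05, beside 3961 of all 10989 genes). Acvr2a, a type II receptor shared with activin, stood at 569 and 582 units in WT and at 474, 466, 424 and 470 units across the KO lines, below both WT libraries (log2 -0.32, adjusted p = 0.077), and it passed with chromosome centring (log2 -0.37, adjusted p = 0.0491). Rgma, a co-receptor of the repulsive guidance molecule family, stood at 262 and 160 units against 148, 146, 154 and 78 units (log2 -0.63, adjusted p = 0.201). The type I receptor gene Acvr1, the co-receptor genes Eng and Rgmb, and Neo1, which encodes a receptor for repulsive guidance molecules, overlapped between the groups, with log2 fold changes of 0.10, 0.26, 0.02 and 0.12. Those of Acvr1, Eng and Rgmb changed sign when WT replicate 2 was left out.

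The receptor-activated Smad genes stood higher in the KO lines without passing the test. Smad1 (ENSMUSG00000031681, chromosome 8, 79338395 to 79399518) stood at 204 and 288 units in WT and at 314, 416, 369 and 360 units across the KO lines. The groups did not overlap, with a log2 fold change of 0.55 (SE 0.178, adjusted p = 0.0733). The genes of chromosome 8 as a whole differed between libraries. Their median deviation from each gene's mean over the 6 libraries was -0.34 (log2) in WT replicate 1 and -0.32 in KO line 1, against 0.07 in WT replicate 2 and 0.16 to 0.22 in KO lines 2 to 4. The lowest Smad1 value of each group fell in those same 2 libraries. With each chromosome centred in each library, the log2 fold change of Smad1 was 0.35 (adjusted p = 0.105). It was 0.79 without WT replicate 2 and 0.32 without WT replicate 1. Smad1 passed in none of the 9 other settings that kept all libraries.

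Smad5 (ENSMUSG00000021540, chromosome 13, 56703010 to 56742377) stood at 366 and 442 units in WT and at 454, 445, 450 and 576 units across the KO lines. KO lines 1 to 3 lay just above WT replicate 2 and line 4 stood apart from them. Its log2 fold change was 0.24 (SE 0.152, adjusted p = 0.294). Smad4, which encodes the partner shared with the activin and transforming growth factor β branches, stood at 968 and 1026 units in WT and at 815 to 1026 units across the KO lines, and its groups overlapped (log2 -0.14, adjusted p = 0.426).

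Smad7, the inhibitory Smad that blocks activated receptors (ENSMUSG00000025880), stood at 1066 and 750 units in WT and at 1410, 1212, 1453 and 1251 units across the KO lines. All KO lines were above both WT libraries, and the WT libraries differed more from each other than the KO lines did. The log2 fold change was 0.56 (SE 0.159) and missed the threshold at an adjusted p of 0.0529. Without WT replicate 1 it passed (log2 0.81, adjusted p = 0.012), as it did with chromosome centring (log2 0.60, adjusted p = 0.0282), and without WT replicate 2 it did not (log2 0.31, adjusted p = 0.178).

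The measured Id genes were lower in every KO line than in either WT library, and Id3 was the 1 that passed the test. Id3 (ENSMUSG00000007872, chromosome 4, 136143497 to 136145755, plus strand) stood at 1342 and 1092 units in WT. In KO lines 1 to 4 it stood at 324, 414, 544 and 268 units. The highest KO line was still below the lower WT library. On the log2 scale Id3 changed by -1.65 (SE 0.268, adjusted p = 0.0117 in limma), the exact two-sided permutation test gave p = 0.0667, and the call held whichever of the 6 libraries was dropped (adjusted p from 0.0188 to 0.0392).

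Id1 (ENSMUSG00000042745, chromosome 2, 152736251 to 152737410) stood at 367 and 324 units in WT and at 130, 268, 245 and 146 units across the KO lines. Lines 1 and 4 were the lowest, as they were for Id3, and lines 2 and 3 lay closer to WT. For Id1 the log2 fold change came to -0.82 (SE 0.304, adjusted p = 0.102) and did not pass in any fit with a library left out. Id4, a further Id gene chosen after its values were seen, stood at 138 and 165 units in WT and at 105, 78, 69 and 45 units across the KO lines, again with no overlap and without passing (log2 -0.94, adjusted p = 0.0782). The log2 ratio of Id3 to Id1 was 1.83 and 1.71 in WT and 1.23, 0.601, 1.11 and 0.815 in the KO lines. It was lower in each KO line than in either WT library, with a difference of means of -0.83, and the exact permutation p was 0.0667, the smallest possible.

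The order of the KO lines differed among members. Line 4 had the highest Bmp4 and the lowest Id3 and Id4, and line 3 had the highest Id3. The KO lines were more spread in Bmp4, Id1 and Id3 than in the other members. The SD of log2 levels among the KO lines was 0.79 for Bmp4, 0.49 for Id1 and 0.43 for Id3, against 0.05 for Bmpr1a, 0.10 for Bmpr2 and 0.13 to 0.17 for the Smad genes. Its median over all genes was 0.15.

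**Figure D3:**
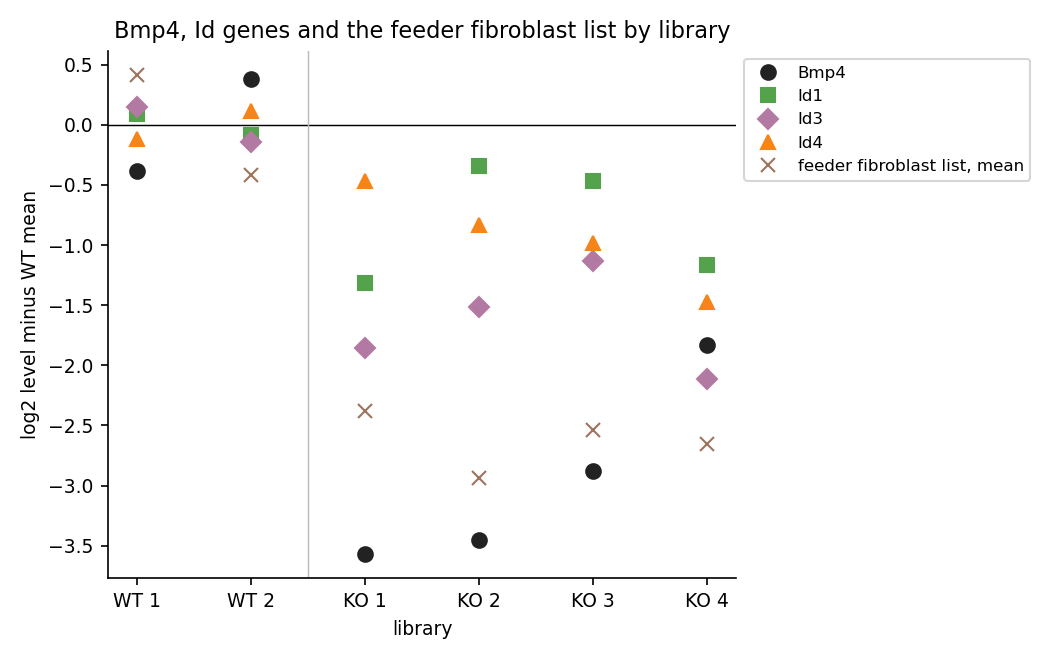
Log2 level of Bmp4, Id1, Id3, Id4 and the mean of the 20 measured feeder fibroblast markers in each library, relative to the mean of the 2 WT libraries. All KO values are below 0, Bmp4 is least reduced in KO line 4 (-1.83) where Id3 is most reduced (-2.12), and WT replicate 2 is the higher WT library for Bmp4 and the lower one for the feeder markers.

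Levels were also compared between members per kilobase of the longest coding transcript, in deposited units. This order holds only if the scores were not already corrected for length, which is not stated; before division by length, Bmpr1a (mean 1363 units in WT and 1029 in KO) was above Id3 (1217 and 388). In WT, Id3 was highest at 952 ± 138 (SD, n = 2), followed by Id1 at 298 ± 26.2. Bmpr1a at 229 ± 33.5, Smad7 at 212 ± 52.2 and Bmp4 at 205 ± 77.8 did not differ beyond their spread, nor did Smad1, Smad5 and Bmpr2, at 61.2 to 65.2. In the KO lines, Smad7 at 311 ± 27.6 (SD, n = 4) and Id3 at 303 ± 94.2 were highest and within each other's spread. Bmpr1a at 173 ± 5.86 and Id1 at 170 ± 59.8 followed. Smad1, Smad5 and Bmpr2 lay at 67.7 to 96.6, and Bmp4 was lowest at 23.3 ± 18.7.

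The partners of ID proteins did not pass the test. Tcf3, which encodes the E proteins E12 and E47, stood at 2236 and 2496 units in WT and at 2320, 2662, 2334 and 2446 units across the KO lines (log2 0.04, adjusted p = 0.773). Tcf4, another E protein gene, stood at 660 and 827 units in WT and at 597, 446, 522 and 634 units across the KO lines, below both WT libraries (log2 -0.43, adjusted p = 0.121). Tcf12, the E protein gene also called HEB, overlapped between the groups (log2 0.17, adjusted p = 0.521). It passed without WT replicate 1 (log2 0.50, adjusted p = 0.0296) and changed sign without WT replicate 2, and Tcf3 changed sign without WT replicate 1. None of these 3 was called in limma, and 1 had an unadjusted p below 0.05, beside 3961 of all 10989 genes.

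Of 37 measured genes of the wider pathway, among 67 listed, 10 were called, 4 higher and 6 lower in the KO lines, beside 17.1% of all genes. Their median log2 fold change was -0.14, against 0.04 over all genes, and the groups did not overlap in 20 of them (54.1%, beside 43.7% of all genes). The extracellular antagonists and modulators held most of the falls, with 5 of 7 measured genes lower and none higher, beside 7.34% of all genes lower. Of these 5, Grem1, Nbl1 and Bmp1 were listed through WT alone, as given below, and so had to differ. The count is therefore no result about this class. Grem1, which encodes the secreted BMP antagonist gremlin, stood at 322 and 212 units in WT and at 32, 18, 16 and 24 units across the KO lines (log2 -2.91, SE 0.33, adjusted p = 0.00495). Nbl1, another secreted antagonist of the DAN family, fell from 142 and 140 units to 12, 6, 8 and 6 (log2 -2.79, adjusted p = 0.00812). All KO lines lay far below both WT libraries for these genes.

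Bmp1 is not a ligand but a metalloprotease that processes procollagen and cleaves the antagonist chordin. It stood at 450 and 358 units in WT and at 20, 26, 40 and 20 units across the KO lines, with a log2 fold change of -3.36 (SE 0.295, adjusted p = 0.00271). As ratios of mean deposited values, Bmp1 was 15.2-fold and Nbl1 17.6-fold lower. Fst, whose product follistatin binds activin and some BMPs, fell from 364 and 250 units to 86, 66, 84 and 52 (log2 -1.89, adjusted p = 0.00767). Fstl1, a secreted glycoprotein of the follistatin-like group, fell from 3064 and 1413 units to 611, 426, 472 and 734 (log2 -1.90, adjusted p = 0.0145). The call of Fstl1 was lost without KO line 3 (adjusted p = 0.0504). Bmp1, Grem1 and Nbl1, and Zeb2 below, reached 80 units in WT libraries alone, and Bmp7 in KO libraries alone. Every gene of the table reaches 80 units in at least 2 libraries, so genes listed through 1 group had to differ, and their counts support nothing about the pathway.

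Among the 14 intracellular regulators, 2 rose, 1 fell and 11 did not pass, so that 21.4% were called beside 17.1% of all genes. The gene that fell, Zeb2, was listed through WT alone and had to differ, so this share is no result about the class. Skil, which encodes SnoN, a repressor that binds Smads, stood at 456 and 525 units in WT and at 1464, 1348, 1075 and 1392 units across the KO lines, a 2.69-fold rise (log2 1.40, SE 0.147, adjusted p = 0.00394). Its relative Ski, a repressor of Smad-dependent transcription, rose less, from 1770 and 1872 units to 2441, 2441, 2376 and 2344 (log2 0.40, SE 0.0804, adjusted p = 0.0208). The call of Ski was lost without KO line 2 (adjusted p = 0.0835) and without KO line 3 (0.0728). The log2 ratio of Skil to Ski was higher by 1.00 in KO than in WT, with each KO line above both WT libraries and an exact permutation p of 0.0667. Zeb2, a Smad-interacting repressor linked to mesenchymal identity, fell from 142 and 99 units to 35, 27, 24 and 24 (log2 -1.67, adjusted p = 0.0187), a call lost without KO line 2 (adjusted p = 0.0653) and without KO line 3 (0.0616). Array weights also ended the calls of Ski (adjusted p = 0.0961) and Zeb2 (0.085). Bambi, a decoy receptor induced by BMP and chosen after its values were seen, stood at 154 and 302 units in WT and at 116 to 136 units across the KO lines and did not pass (log2 -0.74, adjusted p = 0.0924), except without WT replicate 1 (log2 -1.20, adjusted p = 0.00725).

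Of 11 listed targets other than Id1 to Id3, 4 were measured. Dusp9 alone was called, which is 25% of the 4 beside 17.1% of all genes. Dusp9, which encodes a phosphatase of ERK kinases that BMP signalling is known to induce in mouse embryonic stem cells, stood at 483 and 697 units in WT and at 1862, 1590, 1548 and 1972 units across the KO lines. It rose 2.95-fold (log2 1.55, SE 0.174, adjusted p = 0.00475) and held its call in each fit with a library left out. It moved in the opposite direction to Id3.

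**Figure D4:**
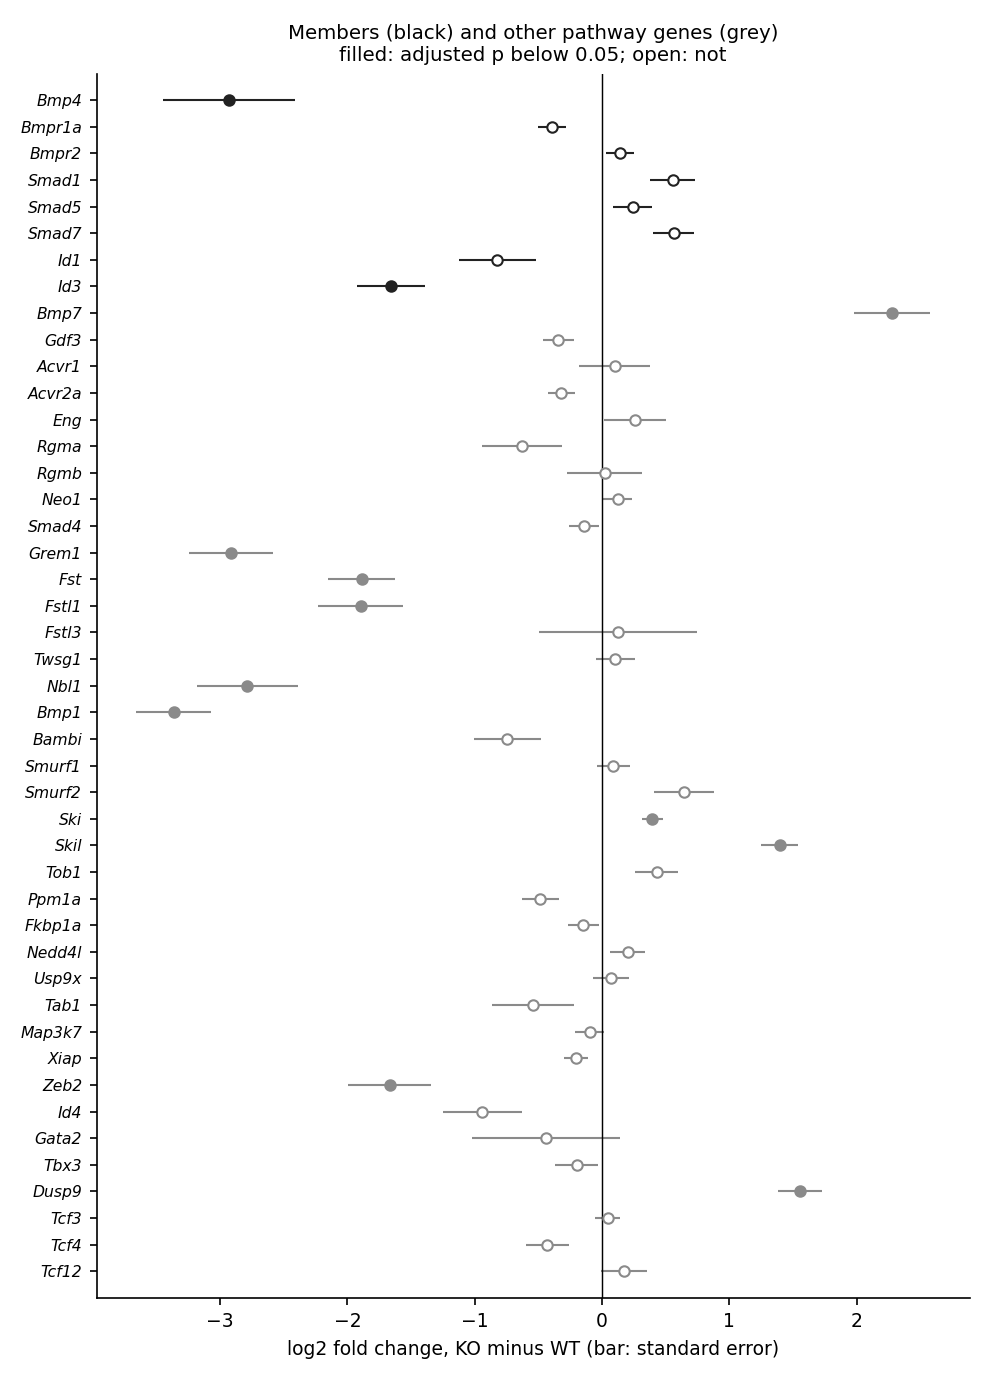
Log2 fold change, KO minus WT, of the 8 members (black) and 37 other pathway genes (grey), with bars for the standard error; filled points passed at an adjusted p below 0.05. The receptors and Smads lie between -0.63 (Rgma) and 0.56 (Smad7), all as open points. Bmp4 and Id3 lie to the left, as do 5 of the 7 antagonists and modulators but not Fstl3 and Twsg1. Of these 5, Grem1, Nbl1 and Bmp1 reached 80 units in WT libraries alone. Bmp7, which reached 80 units in KO libraries alone, lies to the right, as do Skil and Dusp9.

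**Figure D5:**
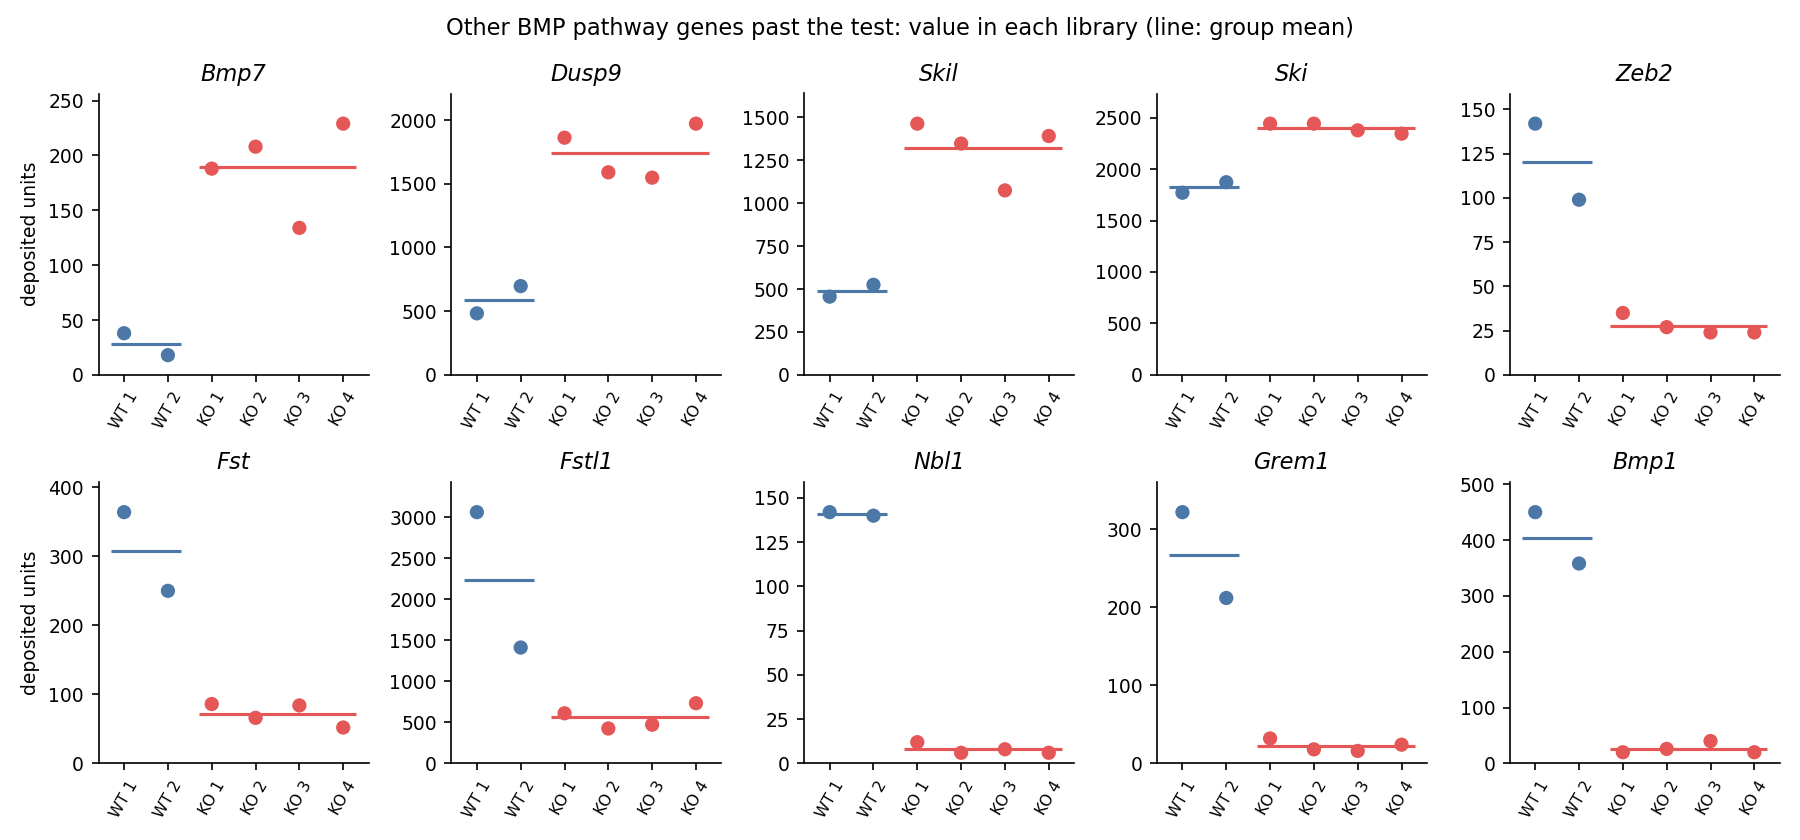
Values of the 10 called pathway genes in the 6 libraries, in deposited units on linear axes that start at 0, with WT in blue, KO in red and lines at the group means. The 4 genes that rose and the 6 that fell show no overlap between the groups. They were picked by the test between these groups, and 43.7% of all genes show no overlap. Grem1, Nbl1, Bmp1 and Zeb2 reached 80 units in WT libraries alone, so by the way genes were listed their groups could not overlap. Bmp7 reached 80 units in KO libraries alone, which favours a lack of overlap. The lack of overlap is therefore no separate result.

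Markers of the feeder cells were lower in the same lines. Of 20 measured feeder fibroblast markers, 18 were lower, none higher and 2 did not pass, with a median log2 fold change of -2.72. Of all genes, 7.34% were lower. Col6a1, Col6a2, S100a4, Prrx1, Loxl1 and Ccl2 reached 80 units in WT libraries alone. Since every gene of the table reaches 80 units in at least 2 libraries, these markers had to differ, and their falls are no independent support. The summed level of the 20 markers was 85332 and 56905 units in WT and 42855 to 46150 units across the KO lines, and none was at 0 in any library. Fn1, at 36452 units in WT replicate 1 and in each KO line, made up much of these sums. Without it the other 19 markers summed to 48880 and 27050 units in WT and to 6403 to 9698 units in KO. Fibroblasts are known to express Grem1, Fstl1 and Bmp1, and they can express Bmp4 and Id genes too. The part of feeder RNA in the falls of Bmp4, Id3 and the antagonist genes was not tested, and in bulk RNA fewer cells of a type and less RNA per cell cannot be told apart. Between the WT libraries, 19 of the 20 markers had their higher value in replicate 1. Grem1, Fst, Fstl1, Bmp1, Id1 and Id3 were also higher in WT replicate 1, whereas Bmp4 was higher in WT replicate 2. Among other lists, the 1 measured mesoderm marker of 4 did not pass, 1 of the 2 measured trophoblast markers was higher and 1 did not pass, and the 4 primitive endoderm markers were not analysed here.

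Genes whose log2 levels followed those of Bmp4 most closely over the 6 libraries were Tatdn2 (Pearson r = 0.996), Epb4.1l3 (0.991) and Nras (0.990), among 10149 genes with a mean of at least 100 units. For Id3 they were Cops2 (0.998), Ppp3r1 (0.994) and Dnajb12 (0.993), and for Id1 they were Sarnp (0.989), Plec (0.984) and Zbed3 (0.961). With 6 libraries that fall into groups of 2 and 4, and with so many genes searched, such values are descriptions of these libraries.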

How the data were processed

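RNA sequencing values were analysed for 2 WT and 4 KO libraries. Bowtie2 2.2.0, RSEM 1.2.17 and build mm10 are named, without roles, in the submitters' processing notes. The gene annotation was not given in the sources used here, nor was the normalization. CPM is the name the authors gave the deposited table, but its values are whole numbers summing to 14612799 to 14722877 per library, with a highest value of 78894 in each. The deposited values are handled here as a normalized score, without count models or counting intervals. Such a shared distribution hides changes in total RNA and compresses the highest levels. Whether length was corrected for, and whether feeder cells were removed before extraction, is not stated.

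Scores were divided by 14.7 (the mean total over 1000000), 1 was added and log2 taken. Genes needed a scaled value of 1 in 2 libraries, and every gene met this. The groups were compared with limma 3.58.1 (R 4.3.3; lmFit, eBayes with a trend, two-sided, no covariate, 4 residual degrees of freedom), with Benjamini-Hochberg adjustment over 10989 genes, and called below 0.05. The script was checked on simulated data. Exact permutation tests enumerated all 15 splits. Positions came from GENCODE M21 for 10941 genes. Trimmed-mean scaling left out 30% of log ratios and 5% of levels at each end.

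Members and gene lists were chosen with earlier results of these data known. Named were all members, all called pathway genes, the uncalled receptors, Smads and E protein genes, Ddx5, and the 3 genes most like Bmp4, Id1 and Id3; the lists of markers were embryonic stem cell, feeder fibroblast, mesoderm, trophoblast and primitive endoderm. Alternatives varied the pseudocount, filter, scaling, weights, replicate block, chromosome centring and the libraries used.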

Additional observations from a re-analysis of the deposited data

Results flagged for a closer look

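Flagged here are 3 genes in which 1 KO line lay far from the other 3 by Dixon's test for 4 samples. Chance marks about 1 in 20 groups, so some are expected among 8 members and 37 other pathway genes. The 3 are therefore not read as a result. They are not a full list, since Twsg1 (1242 units in KO line 4, 936 to 962 in the others) and Usp9x (12232 in KO line 1, 9702 to 10094 in the others) also had 1 line apart. Smad5 stood at 576 units in KO line 4 and at 445 to 454 in the other KO lines. Rgma stood at 78 units in KO line 4 and at 146 to 154 in the others. Acvr2a stood at 424 units in KO line 3 and at 466 to 474 in the others.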

How the results depend on the processing

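With the replicate number as a block, no member was called in limma (0 of 8, 5 at an unadjusted p below 0.05), nor any other pathway gene (0 of 37, 12 at an unadjusted p below 0.05), and 20 genes in all; Bmp4 (log2 -3.51, adjusted p = 0.0602) and Id3 (-1.69, adjusted p = 0.0691) lost their calls. Under this block only the numbers 1 and 2 compare the groups, which leaves 1 residual degree of freedom. The deviations of same-numbered libraries correlated at 0.145 and 0.097 across genes, and the labels number replicates in WT and lines in KO, so they share a number only. With array weights, 382 genes were called in limma, and 2658 had an unadjusted p below 0.05. No member was called (0 of 8, 5 at an unadjusted p below 0.05). The log2 change of Bmp4 was -3.13 (adjusted p = 0.0531) and that of Id3 -1.46 (adjusted p = 0.0983). With trimmed-mean scaling Bmpr1a passed (log2 -0.43, adjusted p = 0.0434). With chromosome centring, added after seeing the data, 4 members passed, Bmp4 and Id3 with Bmpr1a (log2 -0.40, adjusted p = 0.044) and Smad7 (0.60, adjusted p = 0.0282). The cause was not tested.

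With 1 library left out, the genes called ranged from 472 (KO line 2 out) to 3304 (WT replicate 1 out), with 572 for KO line 3 and 1223 for KO line 1; the members called numbered 2 to 4 (4 without WT replicate 1), and the other pathway genes 7 to 14. The log2 changes then ranged from -3.31 to -2.55 for Bmp4, -0.54 to -0.25 for Bmpr1a, 0.08 to 0.20 for Bmpr2, 0.32 to 0.79 for Smad1, 0.11 to 0.37 for Smad5, 0.31 to 0.81 for Smad7, -0.98 to -0.66 for Id1 and -1.83 to -1.50 for Id3. A lone WT library is assumed to vary like the KO lines. No member changed sign under any alternative run. Among uncalled genes, signs changed for Acvr1 (-0.010 with quantile normalization), Tcf3 (-0.0042 with chromosome centring) and Rgmb (-0.22 with quantile normalization, -0.013 with trimmed-mean scaling, -0.0085 with array weights, -0.0061 with chromosome centring). With 1 library left out they ranged from -0.34 to 0.54 for Acvr1, -0.13 to 0.65 for Eng, -0.36 to 0.40 for Rgmb, -0.034 to 0.12 for Tcf3 and -0.15 to 0.50 for Tcf12. Depth is unknown, so what it limits cannot be given.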
